A study of Mus musculus with 7 samples.

Results

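The mouse microRNA hairpins mmu-mir-486 and mmu-mir-3107 (mir-486 and mir-3107 from here) lie on opposite strands of the same short stretch of DNA, and their tags (individual small RNA reads, given as a sequence and a count) were followed here in HL-1 cells. The members are these 2 hairpins of 2202 mouse hairpins searched. They were chosen by name and position, with earlier results of these data known. Every tag of 7 libraries was placed on its best hairpin without gaps and with at most 2 mismatches, which gave the locus 41393 of 40720656 placed tags, on 460 distinct sequences. HL-1 is a line of mouse atrial cardiomyocytes that keeps the ability to contract. No genotype, drug or other agent was varied, and the groups were days of culture: day 1 (2 libraries), day 2 (1), day 3 (2) and day 4 (2). Every library was small RNA sequenced on the SOLiD platform. The culture was followed in 2 independent time courses, time course 2 with 4 libraries and time course 1, which lacks day 2, with 3. HL-1 is 1 immortalised line, so the spread between libraries is one between days and between 2 time courses, and not between animals.

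A microRNA is cut out of a folded hairpin as a short duplex, and one arm (5p or 3p) is usually loaded into an Argonaute protein, where the seed, bases 2 to 8, finds the target messenger RNAs. miR-486 is best known from striated muscle and from red blood cell precursors, where it comes from an intron of Ank1, the gene of ankyrin-1, a protein that ties membrane proteins to the spectrin skeleton. In muscle it is known to repress the transcription factor Foxo1, which drives genes of muscle protein breakdown. mir-3107 is annotated on the other strand. Because the DNA between both hairpin ends is close to its own reverse complement, transcripts of either strand fold into a similar hairpin with almost the same arms.

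On GRCm38, mir-486 runs on the plus strand at chr8:23142555-23142682 and mir-3107 on the minus strand at chr8:23142573-23142662. Both lie inside Ank1 (plus strand, chr8:22974844-23150497), in an intron that spans bases 23141721 to 23148280, and neither overlaps an exon of that gene. The hairpins fold with predicted minimum free energies of -80.3 kcal/mol for mir-486 and -63.8 kcal/mol for the shorter mir-3107. On the 5p arm both transcripts hold an identical run of 22 nt from position 1, counted from the most frequent start, so their 5p seeds are the same. They first differ at position 23, share position 24 and differ again at 25 and 26. On the 3p arm the identical run is also 22 nt, from position -1 to position 20, and the first difference is at position 21. A 5p tag that begins at the main start therefore tells the strands apart only if it reaches position 23, and such a 3p tag only if it reaches position 21. The hairpins also differ just upstream of both runs, so tags that start there can name their strand as well.

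The annotation holds 32 pairs of hairpins that overlap on opposite strands, and in 4 of them, mir-486 and mir-3107 included, each hairpin had at least 150 tags. The other 3 were mir-24-1 with mir-3074-1, mir-24-2 with mir-3074-2, and mir-1a-2 with mir-1b, and 0 tags fitted both hairpins in each of these. Mir24-1 and Mir3074-1, on chromosome 13, show what an ordinary pair looks like: their arms from the same bases have different seeds (capitals, RefSeq, GRCm38.p6, written 5′ to 3′), and a tag names its strand at once.
mmu-miR-24-3p: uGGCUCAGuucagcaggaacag
mmu-miR-3074-5p: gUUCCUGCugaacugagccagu
There 3252059 tags fitted mir-24-1, against 521 for mir-3074-1. The study marks miR-24 as a miRNA of several loci, and 3292290 tags fitted mir-24-2, so many of these tags may come from either copy. The 2 mir-24 pairs are therefore not separate examples. At the Ank1 locus 32932 tags fitted mir-486 and 29944 fitted mir-3107, with 21483 of them counted in both numbers. A shared tag was 51.9% of all tags of the locus (52.7% ± 3.85, SD, n = 7 libraries), and 5 of the 32 pairs shared any tag. Of these, 2 further pairs shared more than 2 tags: mir-299a with mir-299b, where 96 tags fitted both, out of 103 and 96, and mir-374b with mir-374c, where 83 fitted both, out of 10617 and 134.

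The deposited lists hold each tag that fits both hairpins on 2 lines with the same count. Summed as they stand, the shared tags came to 42959, and counted once to 21483, with 7 counts left without an equal partner line. The whole locus came to 62869 tags as listed and to 41393 with each shared count taken once, and the second way was used throughout. No tag of the locus also fitted another hairpin. The libraries held 4892004 to 6829250 placed tags each, so that 1 CPM (1 tag per 1000000 placed tags) was about 5 to 7 tags.

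The 5p arm was the main product. It had 37611 tags against 3782 for the 3p arm, or 90.2% ± 1.78 of the locus (SD, n = 7), between 88.5% (95% Wilson interval 87.7% to 89.4%) in day 3 of time course 2 and 92.5% (91.9% to 93.1%) in day 2 of time course 2. Intervals cover counting error only, and for each library's share of 5p tags, and for the ends, starts and changes of 5p tags, they reach at most 1.79 percentage points to either side. Day 1 gave 889 CPM of the 5p arm in time course 2 and 512 CPM in time course 1, and day 2 gave 1312 CPM. Day 3 gave 828 and 509 CPM, and day 4 gave 1712 and 601 CPM, in the same order. The highest library, day 4 of time course 2, was far above its partner of the same day. The 3p arm followed, with 87.0 and 63.9 CPM for day 1, 106 CPM for day 2, 107 and 63.2 CPM for day 3, and 141 and 75.8 CPM for day 4. In both arms, each library of time course 2 was above each library of time course 1.

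**Figure D1:**
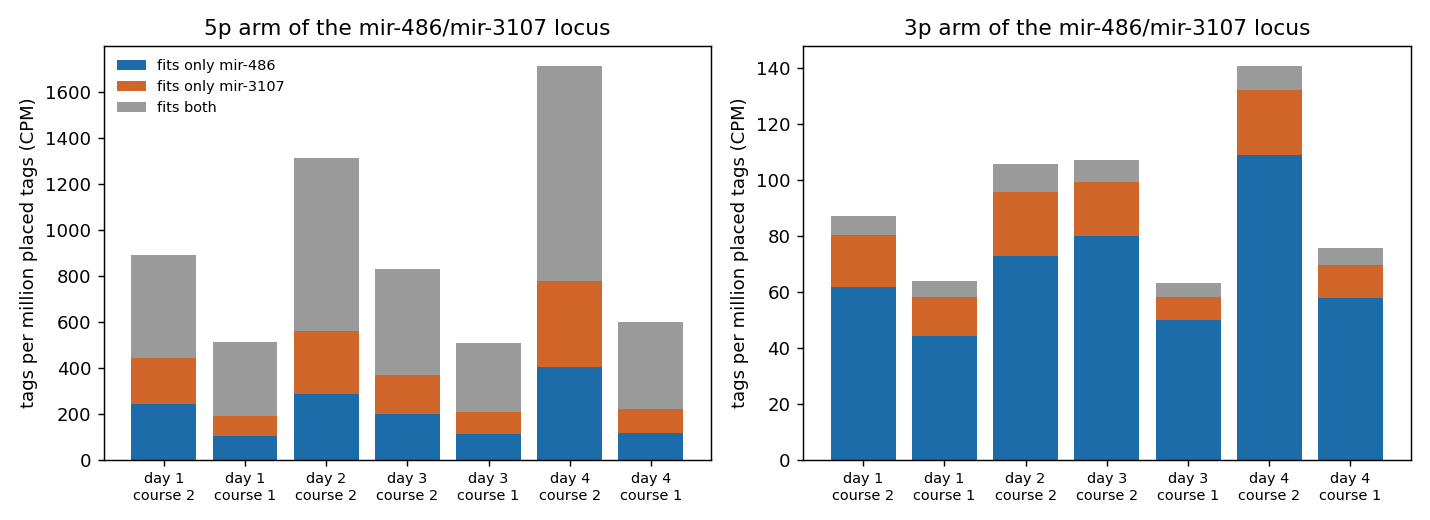
CPM in each library for the 5p arm (left) and the 3p arm (right), with the bars split into tags that fit only mir-486, only mir-3107 or both. The 5p bars reach from 509 to 1712 CPM and the 3p bars from 63.2 to 141 CPM, with day 4 of time course 2 highest in both.

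Between days, no change in the level of the locus passed the threshold, with or without the time course in the model. The 5p arm was at 1712 and 601 CPM at day 4 against 889 and 512 CPM at day 1 (time course 2, then 1), a log2 fold change of 0.93 with a standard error of 0.54 (adjusted p = 0.532 by edgeR's quasi-likelihood test over 790 miRNA arms). For the 3p arm the values were 141 and 75.8 CPM at day 4 and 87.0 and 63.9 CPM at day 1, a log2 fold change of 0.73 with a standard error of 0.47 (edgeR, adjusted p = 0.577). The groups overlapped in both arms. In this comparison 0% of the 790 arms were called at an adjusted p under 0.05, 74 had an unadjusted p under 0.05, and DESeq2 called 8. With the time course as a block, edgeR called 9.62% of the arms, and the locus was still not among them (adjusted p = 0.121 for 5p and 0.202 for 3p). In that fit the log2 fold changes were 0.82 ± 0.31 (SE) for 5p and 0.69 ± 0.31 for 3p. Their unadjusted p by edgeR was 0.0195 and 0.046, and 188 of the 790 arms had one under 0.05. Within each time course the 5p level at day 4 was above that at day 1. In the fit without the block, which then sets 1 time course at day 4 against both at day 1, the 5p log2 fold change was -0.085 without day 4 of time course 2 and 1.53 without day 4 of time course 1 (edgeR, adjusted p = 0.989 and 0.338). For day 3 against day 1 it was 0.10 ± 0.53 (SE) for 5p and 0.35 ± 0.47 for 3p (edgeR, adjusted p = 0.986 and 0.923), where 0% of arms were called, 42 had an unadjusted p under 0.05, DESeq2 called 13 and the blocked fit called 6.33%.

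The 5p arm differed between the time courses. It averaged 2.03-fold higher in time course 2 than in time course 1 with day in the model (log2 fold change 1.02, standard error 0.26, adjusted p = 0.0156 by edgeR), from 828 to 1712 CPM in the 4 libraries of time course 2 and from 509 to 601 CPM in the 3 of time course 1, with no overlap. The 3p arm was higher by a log2 fold change of 0.72, standard error 0.26, and missed the threshold (edgeR, adjusted p = 0.0839), although its libraries did not overlap either, at 87.0 to 141 CPM in time course 2 and 63.2 to 75.8 CPM in time course 1. The difference between the arms was not tested. In the same comparison 13% of 790 arms were called, so a call was not unusual. The 5p call was lost when tags with a mismatch were left out (adjusted p = 0.0718), and without any one library of day 3 (0.106 without time course 1, 0.0795 without time course 2) or of day 4 (0.0846 and 0.093), while the log2 fold change stayed between 0.71 and 1.21. Each time course is 1 independent culture, so that culture, RNA and library preparation cannot be told apart as sources of this difference. The p takes libraries of 1 time course as replicates, so it reflects how the difference varied between days and not between repeat cultures.

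Known companions of miR-486 were measured beside it. The muscle miRNAs (mir-1a, mir-133a, mir-133b, mir-206, mir-208a, mir-208b and mir-499, of which the last 3 come from introns of myosin genes) made up 92516 to 112794 CPM in a library, and mir-208b and mir-499 were the lowest of them, with medians of 4.05 and 8.42 CPM. The erythroid miRNAs mir-451a and mir-144 summed to 25.9 to 46.9 CPM, and the blood cell miRNAs mir-142, mir-223 and mir-150 to 17.4 to 27.2 CPM, with no one of these 5 at 0 in any library. The endothelial mir-126a was at 487 to 929 CPM. The locus, at 572 to 1853 CPM, was thus above the erythroid list in every library. In these bulk libraries, fewer cells with a miRNA and less of it per cell cannot be told apart. At day 4 against day 1, 0 of 12 muscle arms, 0 of 2 erythroid arms, 0 of 5 blood cell arms and 0 of 2 endothelial arms passed the test in either direction (0% of all arms did), with median log2 fold changes of 0.31, 0.38, 0.36 and 0.84 beside 0.026 over all arms. Between time course 2 and time course 1, 1 of 12 muscle arms fell and 0 rose, with a median of -0.0038, and the erythroid, blood cell and endothelial arms gave 0 calls with medians of -0.45, 0.36 and -0.31. Over all 790 arms 13% were called (80 rose and 23 fell), with a median of 0.044.

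The arms whose level followed the locus most closely over the 7 libraries were Mir218 5p (Pearson r = 0.968), Mir15b 5p (0.967), Mir503 3p (0.918), Mir1949 3p (0.886) and Mir1981 3p (0.868), out of 502 arms with at least 150 tags outside the locus. The median over these 502 arms was 0.091. The points share libraries and the scaling to library size, day 4 of time course 2 stands apart in them, and r is given as a description. The 5p and 3p arms of the locus itself had r = 0.946.

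The arm balance did not shift measurably with days. The 5p share was 92.4% and 88.8% at day 4 against 91.1% and 88.9% at day 1 (time course 2, then 1), a difference of 0.12 in log2 odds with a standard error of 0.49 (limma, adjusted p = 0.967 over 218 hairpins). Over all these hairpins 0% were called, 25 had an unadjusted p under 0.05, and the blocked fit called 1.83%, without the locus (adjusted p = 0.93).

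Most 5p tags stopped before the strands could be told apart. Of all 5p tags, 8.65% ended at position 20, 16.4% at 21, 27.6% at 22, 32.5% at 23 and 7.89% at 24. The 5p start was uniform, with 98.6% of tags at the main start, against a median of 90.8% over 444 arms with at least 150 tags that fit no other miRNA. The end was more spread than in the median arm: position 23, the most frequent end, took 32.5% of 5p tags against a median of 44.3%. A lower share was found in 94 of the 444 arms. The 5p arm here sums 2 hairpins, and position 23 holds 6140 tags that fit only mir-486 and 6091 that fit only mir-3107. Whether some of these were reads listed once for each strand was not tested, so the lead of position 23 over 22 depends on counting them all. End shares also varied among libraries. Position 21 took 12.8% of tags (95% Wilson interval 12.2% to 13.4%) in day 4 of time course 2, 16.2% (14.9% to 17.5%) in day 4 of time course 1, 20.3% (19.2% to 21.3%) in day 1 of time course 2 and 26.7% (25.3% to 28.2%) in day 1 of time course 1, so both day 4 libraries were below both day 1 libraries. Position 22 went the other way, with 30.4% and 31.4% at day 4 against 22.4% and 20.1% at day 1. These shares were not tested between days. On the 3p arm 93.6% of tags had the main start, and 26.3%, 44.6% and 14.4% ended at 21, 22 and 23.

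**Figure D2:**
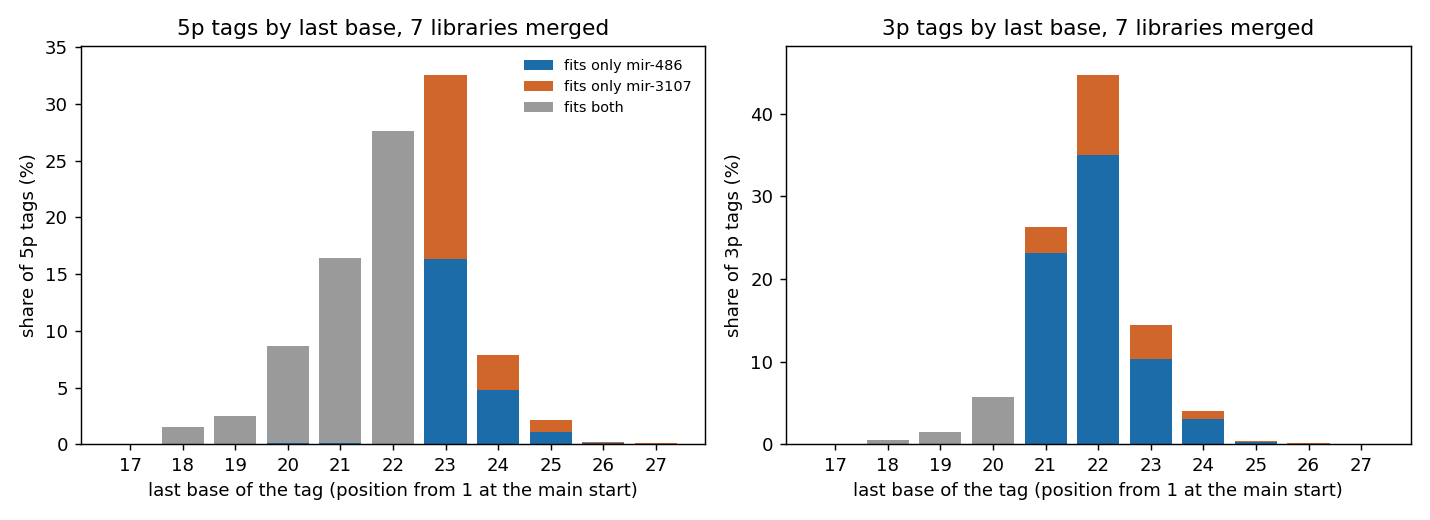
Share of 5p tags (left) and 3p tags (right) by their last base, counted from 1 at the main start, in the 7 libraries merged, split by the hairpin they fit. Almost all 5p tags that end by position 22 fit both hairpins, the bar at 23 (32.5%) is split almost equally, and the 3p bars at 21 to 23 are mostly mir-486.

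With 5p tags that end at position 23 counted as reads of their strand, the strand-specific 5p tags were split nearly equally. For 3p tags mir-486 had about 4 times as many as mir-3107. Tags that fitted only one hairpin numbered 8651 for mir-486 and 7768 for mir-3107 on the 5p arm, beside 21192 that fitted both. By library the mir-486 share was 52.9% ± 1.21 (SD, n = 7), from 51.2% (95% Wilson interval 49.4% to 53.1%) to 54.4% (52.5% to 56.3%). The ratio was 1.12-fold in favour of mir-486, with a mean log2 ratio of 0.17 ± 0.07 (SD, higher in 7 of 7 libraries, exact two-sided sign-flip permutation test, p = 0.0156, adjusted p = 0.0156 over 3 ratios). On the 3p arm there were 2798 tags for mir-486 and 693 for mir-3107, with 291 shared, and the mir-486 share was 80.1% ± 3.86 (SD, n = 7), from 76.0% (72.0% to 79.6%) to 85.8% (81.5% to 89.3%). The 3p ratio was 4.08-fold, a mean log2 ratio of 2.03 ± 0.36 (SD, higher in 7 of 7 libraries, exact permutation p = 0.0156, adjusted p = 0.0156). Both arms together gave 11449 tags for mir-486 and 8461 for mir-3107, a mean log2 ratio of 0.48 ± 0.11 (SD, 7 of 7 libraries, exact permutation p = 0.0156, adjusted p = 0.0156). This p is the smallest that 7 libraries allow, and it treats them as 7 separate cultures, while libraries of 1 time course share a culture. The 5p intervals take each tag as a separate read. Of the strand-specific 5p tags, 6140 for mir-486 and 6091 for mir-3107 ended at position 23. Whether some of these were reads listed once for each strand was not tested. Without them the 5p arm had 2511 tags for mir-486 and 1677 for mir-3107, a 1.55-fold ratio.

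**Figure D3:**
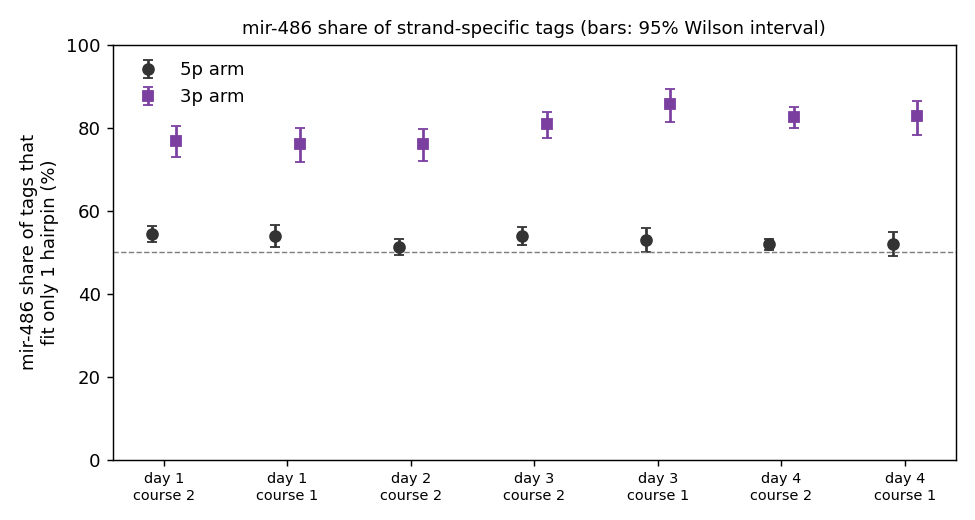
mir-486 share (%) of the tags that fit only 1 hairpin, in each library, for the 5p arm (circles) and the 3p arm (squares), with 95% Wilson intervals and a dashed line at 50%. The 5p points lie between 51.2% and 54.4% and the 3p points between 76.0% and 85.8%. The 5p points and intervals count tags that end at position 23 as separate reads of their strand, which was not tested.

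Most strand-specific 5p tags ended exactly at position 23, on the one base that decides, and there the counts of both strands were nearly equal. The 23-nt tag without a change had 5108 counts for mir-486 and 5045 for mir-3107. In time course 2 these were 926 for mir-486 and 869 for mir-3107 in day 1, 894 and 943 in day 2, 632 and 591 in day 3, and 1506 and 1516 in day 4. In time course 1 they were 414 for mir-486 and 407 for mir-3107 in day 1, 366 and 349 in day 3, and 370 and 370 in day 4. The counts of both forms moved together between libraries, with the lowest in day 3 of time course 1 and the highest in day 4 of time course 2.

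Tags that carry a rare change also had nearly equal counts. Among 23-nt forms with 1 change inside the shared run, 23 changes occurred on the mir-486 form, with 993 counts. The same changes had 1004 counts on the mir-3107 form, and changes seen only on that form were left out. Over the 53 pairs of counts with at least 5 tags, chi-square was 11.9, or 0.225 per pair, where 2 independent counts of equal mean give 1 on average, and 54.7% of the pairs were within 1 tag of each other. The counts of these changed forms were thus closer to each other than independent counts are on average. For the unchanged 23-nt form chi-square was 0.713 per pair over 7 libraries, not far from 1. Tags that end at position 24 carry the same deciding base and were unequal: 1656 for mir-486 and 1075 for mir-3107, with chi-square 20.4 per pair over the 7 libraries. At 25, where a second deciding base is read, there were 410 and 388, and at 26 there were 33 and 57. On the 3p arm the unchanged tags that end at 21, 22 and 23 had 669, 1261 and 370 counts for mir-486 against 103, 334 and 150 for mir-3107, which were unequal too.

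**Figure D4:**
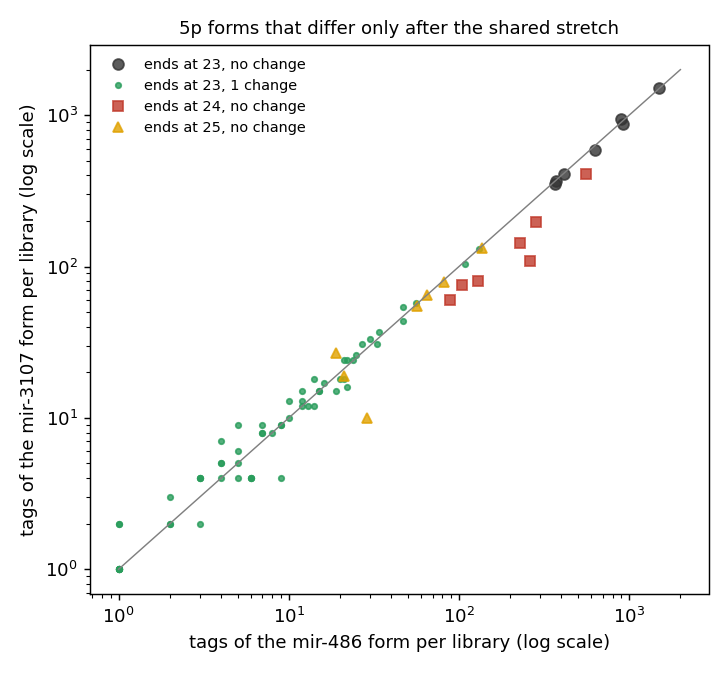
Tags per library of 5p forms that are alike up to the shared run and differ only in the ending, with the mir-486 form on the x axis and the mir-3107 form on the y axis (both log scales, pairs with a 0 left out), and a line of equality. Forms that end at 23, with or without 1 change, lie on or near the line, with departures at low counts. Those that end at 24 lie below it (1656 against 1075 in all), and those that end at 25 lie on either side (410 against 388 in all).

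SOLiD reads each pair of neighbouring bases as a colour, so the last base of an insert is read with the base before it and with the first adapter base. The study's methods allow mismatches against the hairpin plus adapter, but an isolated mismatch only where its quality value was low. A base change had to rest on adjacent colours of high quality, and at the last position it was flagged as a non-templated addition. Tags that matched several different entries gave a count to each. Whether some reads of 23 nt were listed once for each strand was not tested, since the lists hold sequences without read names or qualities. The shares, ratios and fits by strand still count the 5p tags that end at 23, 6140 for mir-486 and 6091 for mir-3107, as reads of their strand. The 5p totals, CPM values and end shares count them all as well. Only the ratios were also taken without them. Without the tags that end at 23, the 5p arm had 2511 strand-specific tags for mir-486 and 1677 for mir-3107, a 1.55-fold ratio (mean log2 ratio 0.63 ± 0.20, SD, 7 of 7 libraries, exact permutation p = 0.0156), and with 2 or more deciding bases read it had 679 and 509 tags (1.44-fold, 0.53 ± 0.34, 7 of 7 libraries, exact permutation p = 0.0156). For both arms together these choices gave 5309 and 2370 tags (2.36-fold, 1.24 ± 0.22) and 2595 and 1083 tags (2.45-fold, 1.29 ± 0.22), each in 7 of 7 libraries. Leaving out the tags that end at 23 was chosen after seeing these near-equal counts. The set with 2 or more deciding bases also holds tags that start upstream of the main start. Examples are the 48 tags of mir-486 from 11 nt upstream, and 22-nt tags from 2 nt upstream (34 for mir-486, 6 for mir-3107). Unchanged 5p tags from the main start had 410 for mir-486 and 388 for mir-3107 at end 25, and 33 and 57 at 26. The ratio of this set is thus not one of main-start tags alone. The strand of the 21192 shared 5p tags is not known from their sequence.

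The base at position 23 was nearly always one that fits a hairpin. This was not particular to that position, since single changes were also rare at 21 (13 tags) and 22 (14 tags). Among 5p tags from the main start whose shared run was unchanged and that reached this position, 7246 had the mir-486 base, 6588 the mir-3107 base, and 2 either of the other bases. The other bases had 0 tags in 6 of the 7 libraries, so the size of a ratio to them would be set by the pseudocount, and none is given. The counts do not tell separate reads from reads listed for both strands.

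Split by strand, the change with days was no clearer. At day 4 against day 1 the log2 fold changes were 0.79 ± 0.65 (SE) for 5p tags of mir-486 only, 0.92 ± 0.65 for those of mir-3107 only and 0.97 ± 0.48 for those that fit both (edgeR, adjusted p = 0.699, 0.625 and 0.544). On the 3p arm they were 0.84 ± 0.48 for mir-486 only, 0.30 ± 0.56 for mir-3107 only and 0.50 ± 0.47 for both (edgeR, adjusted p = 0.544, 0.887 and 0.752). The 3p tags of mir-486 only were at 109 and 57.6 CPM at day 4 against 61.9 and 44.3 CPM at day 1, and those of mir-3107 only at 22.99 and 12.1 CPM at day 4 against 18.6 and 13.9 CPM at day 1 (time course 2, then 1). Among 794 features 0% were called, 77 had an unadjusted p under 0.05, DESeq2 called 8, and the blocked fit called 8.31%, none of them of the locus (adjusted p from 0.134 to 0.69). In the fit without the block and without day 4 of time course 2, the 5p values of mir-486 only and mir-3107 only were -0.39 and -0.26, and the 3p value of mir-3107 only was -0.23.

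A second property of the 5p tags was their number of mismatches. Of the 5p tags 16.5% had a mismatch to the hairpin, against a median of 6.02% over the 444 arms, and 23 arms had more. The 3p arm was near the median, at 7.09%. Of the single changes on the 5p arm 88.3% fell at positions 16 to 19, a window chosen after the positions were seen, and position 17 led. The most frequent single change, to A at position 17, had 1204 tags and occurred in all 7 libraries. For day 1 the share of 5p tags with a change in this window was 11.6% and 16.5% (time course 2, then 1), for day 2 it was 9.22%, for day 3 it was 18.4% and 15.03%, and for day 4 it was 18.8% and 6.81%. It followed neither day nor time course, and changes at other positions took 1.46% to 3.68% of tags. These changes lie within the shared run, so they do not move a tag from one strand to the other.

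**Figure D5:**
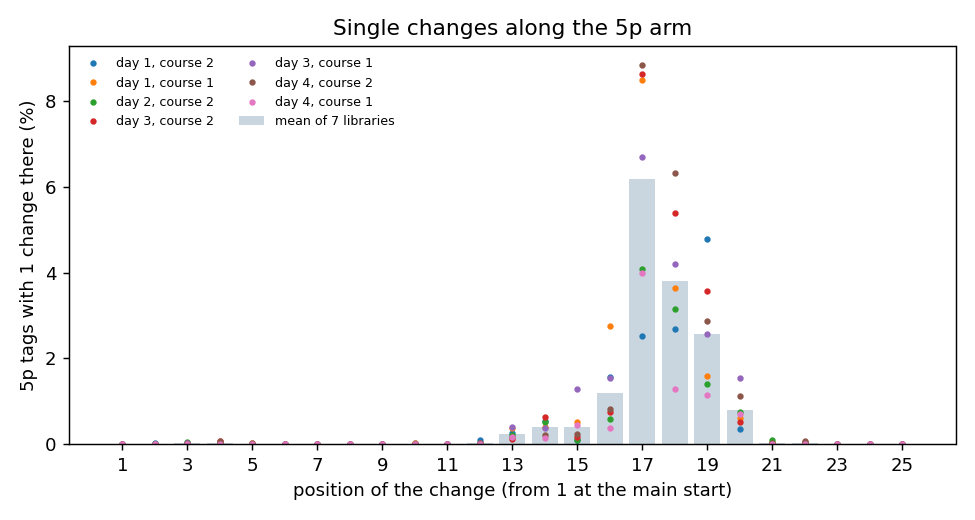
Share of 5p tags (%) with exactly 1 change at each position, counted from 1 at the main start, with the mean of 7 libraries as bars and each library as a point. Changes gather at positions 16 to 19, with position 17 highest, and the libraries differ several-fold there.

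Outside the arms there was little. Tags that start more than 3 nt from a main start numbered 203, or 0.49% of the locus, with 162 that fit only mir-486, 39 that fit only mir-3107 and 2 that fit both. The only form with at least 10 tags was a 22-nt tag of mir-486 that starts 11 nt upstream of the 5p start, with 48 tags. Its counts were 5 and 16 for day 1 (time course 2, then 1), 3 for day 2, 5 and 9 for day 3, and 1 and 9 for day 4. The largest number was in the library of day 1 of time course 1 and the smallest in day 4 of time course 2, the library with the most tags of the locus.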

How the data were processed

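The authors size-selected small RNA of HL-1 cells, sequenced it on SOLiD, mapped tags to miRBase hairpins with the SOLiD Small RNA Pipeline and a mismatch and multimapping script, and deposited for each of 7 libraries distinct tags with their raw counts, not normalized. Per the labels the genome build was mm9. Coordinates here are from GENCODE vM21 (GRCm38).

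Tags of at least 16 nt were placed on 2202 hairpins with at most 2 mismatches and 4 bases past an end. 0.255% of tags were not placed, and 101 lines without a sequence (293 tags) were left out. Copies of a miRNA were merged. Repeat lines were counted once (0.861% of counts removed), and other tags of several miRNAs were divided equally. An arm was given by the tag's midpoint. Of the members, 0 of 2 matched the RefSeq sequence table: Mir486, Mir3107.

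Counts per arm were tested with edgeR 4.0.16 (TMM, filterByExpr, quasi-likelihood, Benjamini-Hochberg over all arms), with terms for day (all 7 libraries, residual degrees of freedom 3) or for day and time course together (2). Standard errors were derived from the F statistic. Arm shares were tested with limma 3.58.1 on log2 odds (pseudocount 0.5) for hairpins with at least 50 tags in every library. Ratios within libraries were tested by exact sign-flip permutation. Replicate numbers mark independent time courses, and the differences between time courses were correlated between days (r from 0.40 to 0.453 in 3 pairs of days, over 790 arms), so a blocked fit was run too. Alternatives were DESeq2 1.42.0, library totals, no filter, no mismatch, other pseudocounts and leaving out each library. Named were both arms of both hairpins, forms with at least 1% of an arm, off-arm forms with at least 10 tags, the 5 most alike arms, and the lists and opposite-strand pairs given. Scripts were tested on simulated data. Members and lists were chosen with earlier results of these data known. R 4.3.3 and Python 3.11.15 were used.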

Additional observations from a re-analysis of the deposited data

Results flagged for a closer look

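Of 70 sets of libraries (35 values, each over all 7 libraries and over the 4 of time course 2), 3 had a library far from the others, which is about what chance gives at 1 in 20. The share of 5p tags that end at position 25 was 2.50% in day 2 of time course 2, above the other 3 libraries of that time course. The share of 3p tags that end at position 24 was 2.16% in day 4 of time course 1, below all others, and 4.72% in day 3 of time course 2, above the others of its time course.

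For 8 of the 35 values, day 4 minus day 1 had opposite signs in the time courses, with 1 library on each side, and these differences were not tested. The share of 5p tags with a mismatch differed by 7.87 percentage points in time course 2 and by -10.3 in time course 1, and that of 3p tags by 1.95 and -2.42. The share of 5p among tags of the locus differed by 1.31 and -0.12 points, the share of tags that fit both hairpins by 4.59 and -0.039, the share of 3p tags at the main start by 0.20 and -0.24, the share of 5p tags that end at 19 by 0.89 and -0.10, and of those that end at 25 by -0.0088 and 0.35. The 3p tags that fit only mir-3107 differed by 4.36 CPM in time course 2 and by -1.88 CPM in time course 1.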

How the results depend on the processing

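Of 192 values under an alternative, 177 kept their direction and their side of the threshold, and the cause of the other changes was not tested. With library totals in place of TMM, which moved the median of all arms to -0.18 for day 4 against day 1 and -0.21 for day 3 against day 1, the 5p log2 fold change of day 3 against day 1 was -0.068. With tags without a mismatch, that of time course 2 against time course 1 was 1.01 (edgeR, adjusted p = 0.0718). Leaving out each library, without a block, gave log2 fold changes from -0.085 to 1.53 (5p, day 4 against day 1), -0.27 to 0.61 and -0.041 to 0.64 (5p and 3p, day 3 against day 1) and 0.71 to 1.21 (5p, time course 2 against time course 1), and for day 4 against day 1 by strand -0.39 to 1.59 (mir-486 only, 5p), -0.26 to 1.70 (mir-3107 only, 5p) and -0.23 to 0.71 (mir-3107 only, 3p), and -0.19 to 0.43 in log2 odds for the 5p share. The day 4 values below 0 came without day 4 of time course 2, apart from the 5p share, which was also below 0 (-0.06) without day 1 of time course 1. The mir-486 over mir-3107 ratios kept their direction in all 11 alternatives each, at an adjusted exact permutation p of 0.0156 to 0.0312.

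The replicate block, with the time course in the model, gave 5p log2 fold changes of 0.82 (day 4 against day 1) and 0.14 (day 3 against day 1) and changed no call of the locus. It raised the number of called arms to 76 and 50, against 0 and 0 without it, to 66 of the 794 strand-specific features and to 4 of 218 hairpins in the 5p share. DESeq2 called 8, 13 and 8 where edgeR called 0. The 5p share gave 1 call without either library of day 3. Between time courses edgeR called 103 arms, 23 without mismatches and 60 to 82 without one library. With only tags that fit mir-486, an alternative added after seeing the data, the 5p values were 0.93, 0.12 and 0.95 for the 3 comparisons. For both arms together the mean log2 ratio of mir-486 to mir-3107 was 0.48, against 1.24 without 5p tags that end at 23 and 1.29 with 2 or more deciding bases. On the 3p arm 693 tags fitted mir-3107 only, 44 to 157 in a library.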
